A study of Homo sapiens with 4 samples.

Results

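The machinery that copies chromosomal DNA was followed as 48 genes of the 20322 genes with deposited estimated counts. The 48 genes were chosen by symbol, with earlier results of these data known. They encode the origin recognition complex, the licensing factors, the MCM helicase and its activators, the replicative polymerases, the clamp and its loader, RPA and the enzymes that join Okazaki fragments. RNA was sequenced from HT-29, an established human colorectal adenocarcinoma cell line, in 2 groups of 2 libraries. The IMP1-OE group carried a PiggyBac vector with FLAG-tagged IMP1 and a short UTR, and the null group carried an empty PiggyBac vector. The cells of both groups had been edited with CRISPR/Cas9 at IGF2BP1, which encodes the oncofetal RNA-binding protein IMP1, grew with puromycin in the medium and, per the labels, derived from a mouse liver metastasis. The question of the comparison was which mRNAs differ when IMP1 is expressed again on the null background. The submitters mention 2 cell lines per genotype without saying whether they were separate clones or cultures, so the p-values speak for the spread among these libraries alone, and that spread may be technical.

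Replication begins in G1, when the origin recognition complex, CDC6 and CDT1 load MCM2-7 rings onto DNA in an inactive form, a step called licensing. At the start of S phase the kinase CDC7 with its activator DBF4, together with MCM10, CDC45 and the GINS complex, turns loaded rings into the active helicase. Polymerase alpha with primase then lays primers, polymerase epsilon and polymerase delta extend the leading and the lagging strand, RFC loads the PCNA clamp, RPA coats single-stranded DNA, and FEN1 and LIG1 process and seal Okazaki fragments. Many of these genes are textbook targets of E2F transcription factors, which act in late G1 and S phase, so their mRNAs are commonly read together with proliferation. In bulk RNA, a different share of cells in S phase and a different amount of mRNA per cell cannot be told apart.

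An E2F-type sequence, which the choice by symbol did not use, was more frequent in the promoters of these genes than in those of all tested genes, though many of them lacked it. Of the 48 genes, 42 matched a RefSeq promoter window (GRCh38.p14, 250 bases before to 50 after a gene start), with 55 windows in all. MCM4, MCM5, GINS4, POLD3, RPA2 and RPA3 had no entry. The motif was searched as the 4 spellings TTTCCCGC, TTTCGCGC, TTTGCCGC and TTTGGCGC on both strands, where TTTCGCGC and its complement can overlap, as they do in MCM2. It was present in at least 1 window of 21 of the 42 genes (50.0%), against 6.87% of the tested genes of the whole table that had a window and 3.99% of all genes with a window. By windows the shares were 38.2% of the 55, 5.08% of the windows of tested genes and 3.31% of all windows in the reference table. The CCAAT box, the letters bound by NF-Y, searched as CCAAT on both strands, was present in 25 of the 42 genes (59.5%), against 43.5% of the tested genes with a window. Both motifs were present in 13 of the 42 genes (31.0%), against 3.57% of the tested genes with a window.

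Stretches of 30 bases around the motif are printed for 8 genes, chosen after their values were seen, to set genes with higher levels in IMP1-OE beside genes with almost equal levels in the groups. Each is given 5′ to 3′ on the strand of its gene, with 1 E2F-type match in either orientation in capitals.
RFC3: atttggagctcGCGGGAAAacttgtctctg
GINS2: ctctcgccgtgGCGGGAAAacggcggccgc
GMNN: gctgggtcggtTTTGGCGCgctctcacttc
POLE4: ctccagcccgcGCGGGAAAgggcctgcgcc
MCM2: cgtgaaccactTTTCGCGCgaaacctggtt
MCM7: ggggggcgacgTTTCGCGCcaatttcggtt
PCNA: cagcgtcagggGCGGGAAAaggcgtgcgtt
LIG1: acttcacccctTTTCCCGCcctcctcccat
The stretches lie at chr13:33818083-33818112 (plus strand) for RFC3, chr16:85688967-85688996 (minus) for GINS2, chr6:24775322-24775351 (plus) for GMNN and chr2:74958601-74958630 (plus) for POLE4. Those of the genes with almost equal levels lie at chr3:127598402-127598431 (plus) for MCM2, chr7:100101388-100101417 (minus) for MCM7, chr20:5126663-5126692 (minus) for PCNA and chr19:48170440-48170469 (minus) for LIG1. Every stretch is within the window around a gene start. The letters GCGGGAAA, the complement of TTTCCCGC, stand in the windows of RFC3, GINS2 and POLE4 and in those of PCNA and MCM7 alike. The window of LIG1 holds TTTCCCGC itself. Among the 21 genes with the motif, 11 had both IMP1-OE libraries above both null libraries and the median log2 fold change was 0.17, and among the 21 genes without it the values were 12 and 0.26. Of all tested genes, 21.3% had both IMP1-OE libraries above both null libraries. An unadjusted edgeR p under 0.05 was reached by 2 of the 21 genes with the motif and 5 of the 21 without it. All of these were higher in IMP1-OE, as were 4.34% of all tested genes at that p. A match is a description of these letters and not a shown binding site.

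Library totals ran from 10015212 to 10472121 counts in IMP1-OE and from 9343429 to 10594813 counts in null. Levels are given as CPM scaled by TMM, and log2 fold changes are edgeR values for IMP1-OE over null. IGF2BP1 itself had 71 and 112 counts in the IMP1-OE libraries, against 37 and 16 counts in the null libraries, a log2 fold change of 1.69 (SE 0.56) with an edgeR adjusted p of 0.453, so the order of the groups followed their labels but the test was not passed. Of 10 colorectal epithelial markers 8 passed the low-count filter, and KRT8, KRT18 and EPCAM were abundant. CEACAM5, 1 of the 8, was at 6.38 and 10.2 CPM in IMP1-OE, against 59.3 and 3.83 CPM in null. The intestinal factor CDX1 was counted in null replicate 1 alone, and CDX2 stood at 0 and 0.285 CPM in IMP1-OE, against 4.60 and 0.219 CPM in null. CD3E, KDR, ALB, APOA1 and CYP3A4, markers of leukocytes, endothelium and hepatocytes, had no count in any library. Other genes of these lists were counted at low levels, with CD68 at 12.6 and 6.08 CPM in IMP1-OE, against 17.0 and 16.3 CPM in null, and PECAM1 and TF between 2.05 and 6.94 CPM. The endothelial list summed to 3.14 and 4.09 CPM in IMP1-OE, against 2.35 and 2.95 CPM in null, and the fibroblast list of 6 genes to 6.28 and 2.09 CPM in IMP1-OE, against 13.1 and 2.52 CPM in null, where LUM in null replicate 1 made up 7.24 CPM. The part of these genes in the results was not tested. On the leukocyte and hepatocyte lists LYZ and SERPINA1 were abundant, both of which intestinal epithelium also makes. LYZ was at 1884 and 1742 CPM in IMP1-OE, against 2798 and 1378 CPM in null, and SERPINA1 at 685 and 725 CPM in IMP1-OE, against 436 and 225 CPM in null. A single gene, ARSI, took 8.01% and 12.4% of the counts in IMP1-OE, against 17.8% and 17.3% in null. The 48 replication genes together took 0.507% and 0.502% of the counts in IMP1-OE, against 0.443% and 0.431% in null, and with ARSI set aside 0.551% and 0.573% in IMP1-OE, against 0.539% and 0.521% in null. The null libraries differed more from each other than the IMP1-OE libraries did, with a median absolute log2 difference over all tested genes of 0.23 between the IMP1-OE libraries and 0.39 between the null libraries. Over the 48 replication genes it was 0.16 between the IMP1-OE libraries and 0.28 between the null libraries.

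All 48 genes passed the low-count filter that left 12113 genes, with 60 to 8259 counts per library. Most stood somewhat higher in IMP1-OE. The log2 fold change was above 0 for 38 of the 48 genes (79.2%), against 48.1% of all tested genes. Both IMP1-OE libraries lay above both null libraries for 24 genes (50.0%), against 21.3% of all tested genes, and below both for 4 genes (8.33%), against 21.9%. The groups overlapped for the other 20. All tested genes had a lower median level, 6.98 CPM per kilobase against 18.8 for the 48, and varied more between replicates. No set of genes of like level was compared, and the part of level and spread in these shares was not tested. The median log2 fold change was 0.23 over the 48 genes and -0.02 over all tested genes, with a range from -0.38 (RPA2) to 1.01 (MCM9).

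No member passed the test across all genes. The edgeR quasi-likelihood test called 0 of the 48 genes at an adjusted p of 0.05, where it called 0% of all tested genes, and the smallest adjusted p among them was 0.435, shared by RFC5 and RFC3. DESeq2 and limma-voom also called 0 of the 48. Of the 48 genes, 0 passed in the authors' deposited table, where 1.28% of the genes with an adjusted p were called. The smallest adjusted p there was 0.0863, for RFC5. The DESeq2 run gave the same smallest adjusted p, and each called 164 genes, so it and the deposited table are not separate checks. An unadjusted edgeR p under 0.05 was reached by 7 of the 48 genes, all higher in IMP1-OE, which is 14.6% of them against 4.34% of all tested genes. They were RFC5, RFC3, GINS2, MCM9, CDC45, ORC1 and MCM10. On the lower side 0 of the 48 reached it, against 5.84% of all tested genes. With a library left out the background moved too. Without IMP1-OE replicate 1, RFC3 alone of the 48 was higher at that p, where 1.32% of all tested genes were, and without IMP1-OE replicate 2, RFC5 alone, where 0.768% of all tested genes were. Without null replicate 1 there were 15 higher members (31.2%) and 3 lower (6.25%), against 12.7% and 12.2% of all tested genes. Without null replicate 2 there were 7 higher members (14.6%), of which 5 were among the 7 named above, against 7.23% of all tested genes.

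**Figure D1:**
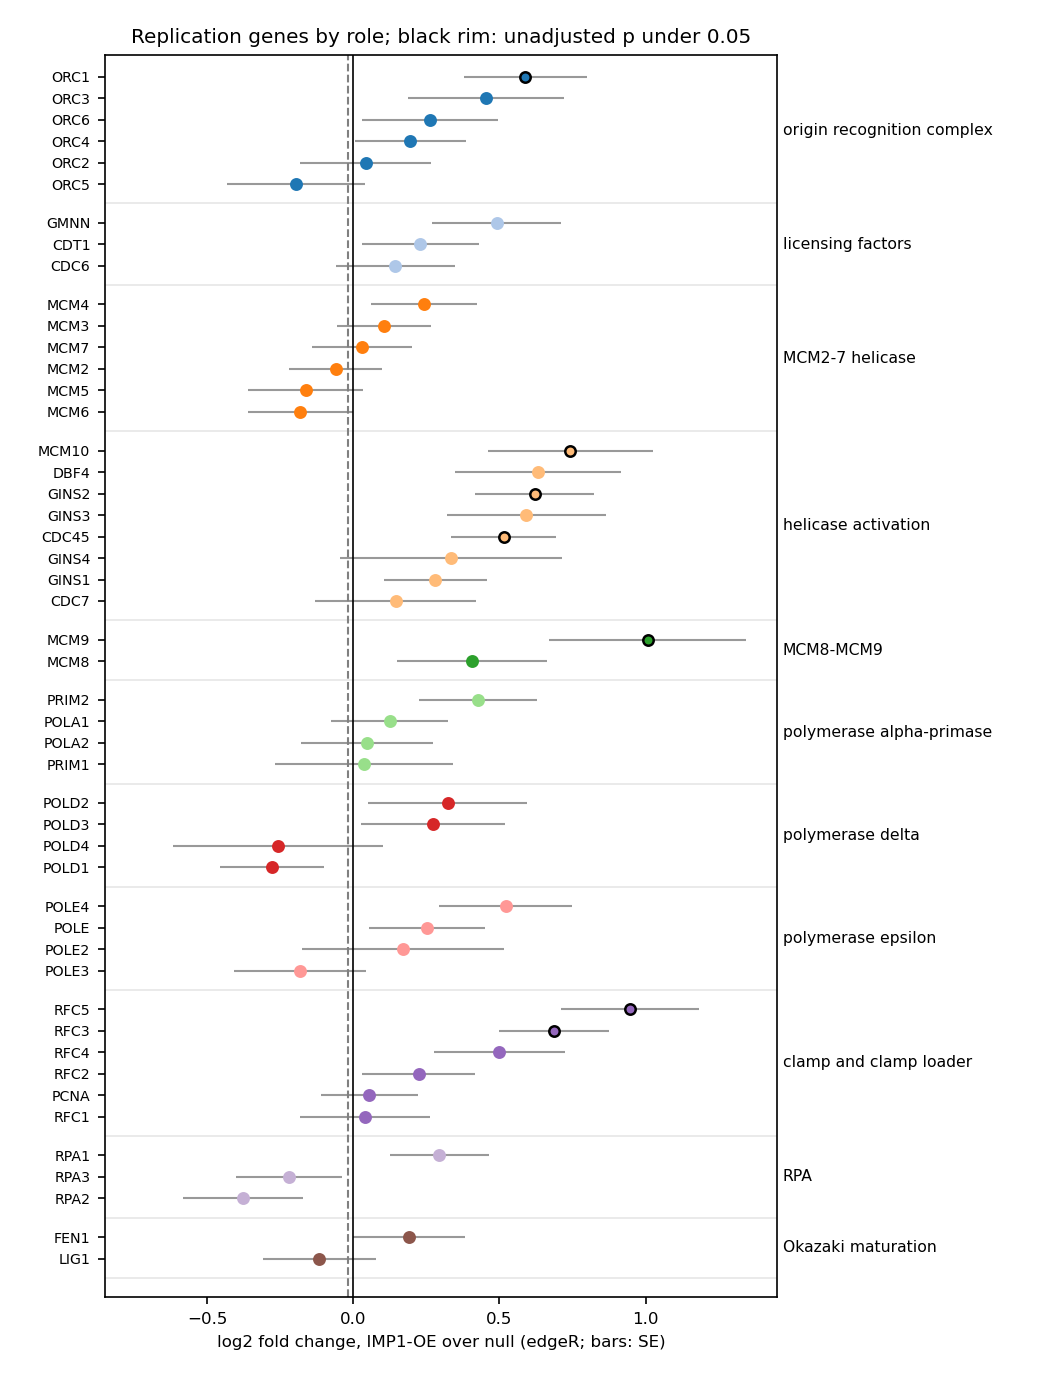
Log2 fold change of each of the 48 genes, IMP1-OE over null, with the SE as bars and the genes grouped by role. The dashed line is the median of all tested genes (-0.02), and a black rim marks the 7 genes with an unadjusted edgeR p under 0.05. All 8 genes of helicase activation lie to the right of 0, while the MCM2-7 genes lie on both sides of it.

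The transcript levels of the members differed widely among themselves. On a scale of CPM per kilobase of transcript, averaged over the 4 libraries, MCM7 was highest at 307 and PCNA next at 226, followed by MCM2 at 120, FEN1 at 105, MCM3 at 104 and MCM4 at 99.0. MCM9 was lowest at 2.34, below GINS4 at 3.07 and DBF4 at 4.85. The median over the 48 genes was 18.8 CPM per kilobase, against 6.98 over all tested genes, and 40 of the 48 stood above that second value. Neighbours such as FEN1, MCM3 and MCM4, or RFC2 (36.9) and RFC3 (36.9), lay within the spread of their libraries and have no order.

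**Figure D2:**
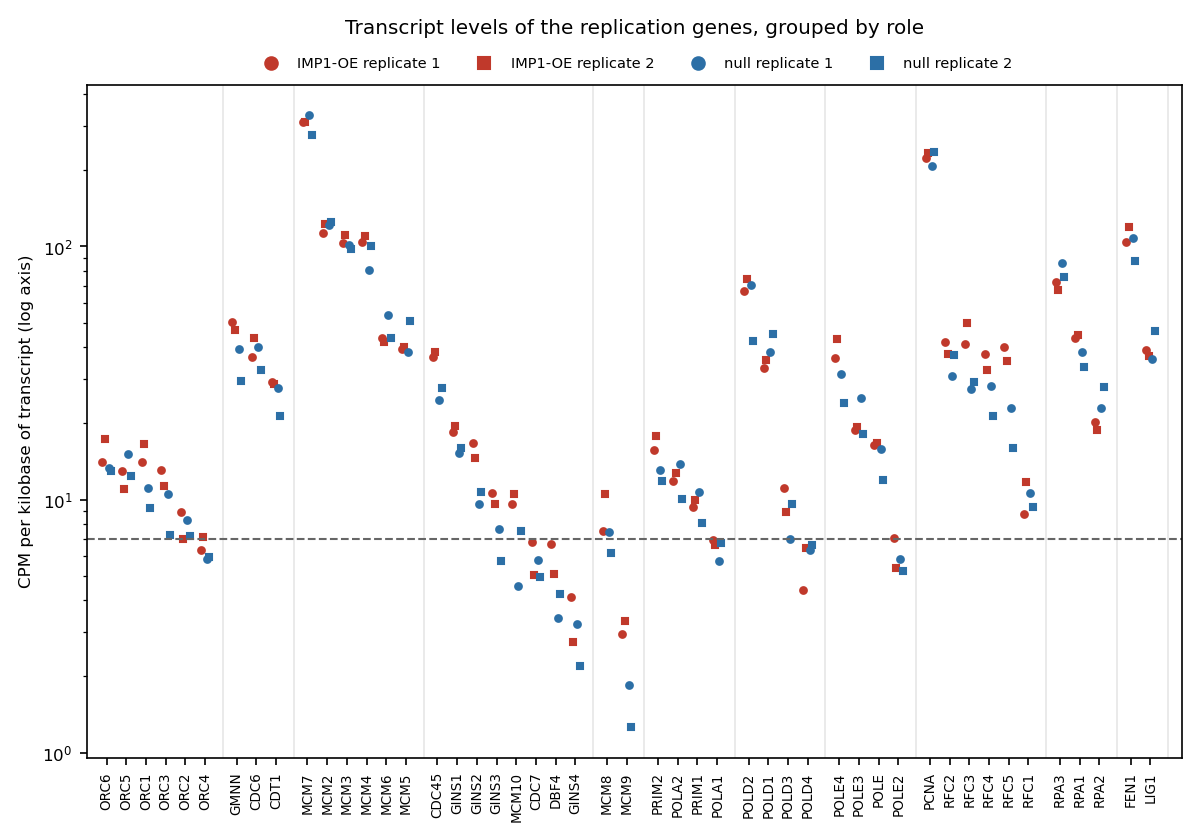
Level of each gene in each library as CPM per kilobase of transcript on a log axis, grouped by role, with IMP1-OE in red and null in blue and the dashed line at the median of all tested genes (6.98). MCM7 and PCNA stand far above the helicase activators, and the distance between genes is much larger than the distance between groups of 1 gene.

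The genes of the origin recognition complex, the ATPase that marks origins, were higher in IMP1-OE for 5 of 6, with a median log2 fold change of 0.23. ORC1, the largest subunit and one whose level is regulated in the cell cycle, was at 43.6 and 51.5 CPM in the IMP1-OE libraries, against 34.4 and 28.8 CPM in the null libraries. Both IMP1-OE values lay above both null values. The difference was 0.59 on the log2 scale (SE 0.21, unadjusted edgeR p of 0.0320). ORC3, a core subunit, was at 32.5 and 27.9 CPM in IMP1-OE, against 26.1 and 17.9 CPM in null, where null replicate 2 was the lowest of the 4. ORC4 and ORC6 also had both IMP1-OE libraries above both null libraries, with log2 fold changes of 0.20 and 0.26. With ORC1 and ORC3 this held for 4 of the 6 genes (66.7%), against 21.3% of all tested genes. ORC2 (0.04) and ORC5 (-0.20) had overlapping groups. Per kilobase, ORC6 was highest at 14.4 CPM and ORC4 lowest at 6.30 CPM, so the 6 subunits lay within a narrow range.

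The 3 licensing factors all had fitted values above 0. GMNN, the gene of geminin, which holds CDT1 inactive in S and G2 phase, was at 51.0 and 47.3 CPM in the IMP1-OE libraries, against 40.0 and 29.98 CPM in the null libraries. Its fold was 1.40, with a log2 fold change of 0.49 (SE 0.22) and an unadjusted edgeR p of 0.0685. With null replicate 2 left out the log2 fold change was 0.30, and with null replicate 1 left out it was 0.71. CDT1, which brings MCM2-7 to origins, was at 76.7 and 75.5 CPM in IMP1-OE, against 73.1 and 56.7 CPM in null. The first null library was close to the IMP1-OE libraries and the second set most of the difference, and the log2 fold change of CDT1 was 0.23, or 0.06 when the second was left out. CDC6, the ATPase that works with the origin recognition complex, had overlapping groups, at 70.1 and 84.0 CPM in IMP1-OE and 77.1 and 62.5 CPM in null. The ratio of GMNN to CDT1 per kilobase was 1.73 and 1.63 in the IMP1-OE libraries, against 1.42 and 1.37 in the null libraries.

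The MCM2-7 helicase core was abundant and its fitted differences lay close to 0. Of the 6 genes 3 had a log2 fold change above 0 and 3 below, with a median of -0.02 and a range from -0.18 (MCM6) to 0.24 (MCM4), and with library totals in place of TMM it was 4 above, since MCM2 was at 0.02 there and at -0.06 with TMM. MCM7 was at 759 and 756 CPM in the IMP1-OE libraries, against 808 and 676 CPM in the null libraries. MCM2 was at 386 and 418 CPM in IMP1-OE, against 413 and 425 CPM in null. In both genes the groups overlapped. MCM4 was at 435 and 458 CPM in IMP1-OE, against 336 and 419 CPM in null, and MCM3 at 314 and 339 CPM against 310 and 298 CPM, so that both had the IMP1-OE libraries on top by small margins. MCM6 was lower in both IMP1-OE libraries, at 162.2 and 157 CPM against 199 and 162.6 CPM, though its second null library was only just above them. MCM5 was at 136 and 137 CPM in IMP1-OE and at 132 and 174 CPM in null. No MCM2-7 gene had an unadjusted edgeR p under 0.05, the smallest being 0.233 for MCM4. The 6 subunits form a ring in equal numbers, yet their transcripts were uneven, and the highest level per kilobase exceeded the lowest by 7.88-fold and 7.73-fold in the IMP1-OE libraries and by 8.62-fold and 6.34-fold in the null libraries.

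The activators of the helicase shared a direction. All 8 genes had a log2 fold change above 0, with a median of 0.55, where 48.1% of all tested genes were above 0. For 6 of them (75.0%) both IMP1-OE libraries lay above both null libraries, against 21.3% of all tested genes. Under every scaling tried all 8 stayed above 0, and without IMP1-OE replicate 1 it was 7 of 8. CDC45, which joins MCM2-7 in the moving helicase, was at 67.9 and 71.3 CPM in the IMP1-OE libraries, against 46.1 and 51.4 CPM in the null libraries. The libraries of each group were close together and the groups apart, with a fold of 1.43, a log2 fold change of 0.51 (SE 0.18) and an unadjusted edgeR p of 0.0295. GINS2, a subunit of the GINS complex, was at 43.8 and 37.9 CPM in IMP1-OE, against 25.1 and 28.0 CPM in null, a 1.54-fold difference with a log2 fold change of 0.62 (SE 0.20) and an unadjusted edgeR p of 0.0233. GINS3 was at 23.03 and 21.0 CPM against 16.7 and 12.5 CPM, and GINS1 at 60.7 and 64.4 CPM against 50.4 and 52.6 CPM. GINS4 had the lowest level per kilobase of the 8, and its groups overlapped, at 15.4 and 10.3 CPM in IMP1-OE and 12.1 and 8.21 CPM in null.

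MCM10, a factor needed to start the assembled helicase, was at 43.5 and 47.7 CPM in the IMP1-OE libraries, against 20.6 and 33.9 CPM in the null libraries. The null libraries stood far apart, and the log2 fold change was 0.74 (SE 0.28, unadjusted edgeR p of 0.0393), with 0.43 when null replicate 1 was left out and 1.14 when null replicate 2 was. DBF4, which activates the kinase CDC7, was at 24.3 and 18.5 CPM in IMP1-OE, against 12.3 and 15.3 CPM in null, with an unadjusted edgeR p of 0.0691. CDC7 itself overlapped between groups, at 22.3 and 16.6 CPM in IMP1-OE and 19.0 and 16.2 CPM in null. The ratio of CDC7 to DBF4 per kilobase was 1.01 and 0.991 in the IMP1-OE libraries, against 1.70 and 1.17 in the null libraries.

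**Figure D3:**
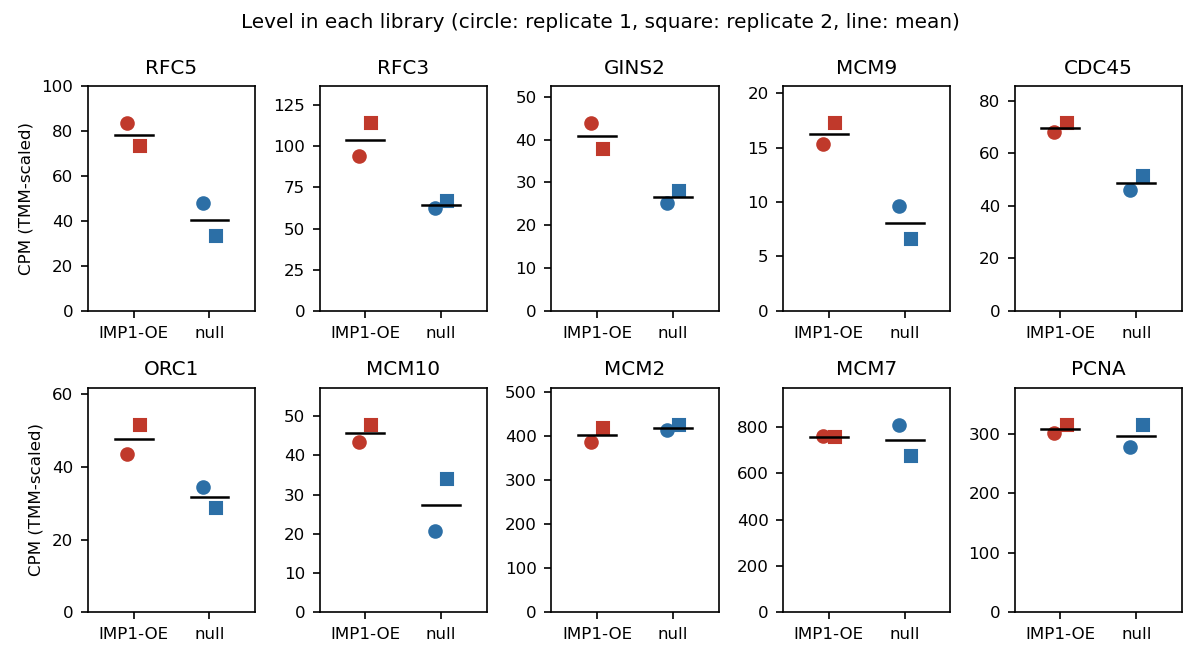
Level of 10 genes in each library in TMM-scaled CPM, with axes from 0, a circle for replicate 1, a square for replicate 2 and a line at the mean of the group. In the 7 genes with an unadjusted edgeR p under 0.05 both IMP1-OE points lie above both null points, and in MCM2, MCM7 and PCNA the groups overlap.

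The balance between the helicase core and its activators differed with these levels. The mean of MCM2-7 per kilobase was 119 and 122.5 CPM in the IMP1-OE libraries, against 121 and 116 CPM in the null libraries. It was 3.25 and 3.19 times the level of CDC45 in IMP1-OE, against 4.87 and 4.17 times in null, and 9.54 and 10.5 times the mean of GINS1-4 in IMP1-OE, against 13.5 and 13.3 times in null. The excess of the MCM mean over both was thus smaller in both IMP1-OE libraries than in either null library. MCM7 made up the largest part of that mean, at 311 and 309 CPM per kilobase in IMP1-OE, against 331 and 277 in null. MCM5, the lowest of the 6 on average, was at 39.5 and 40.0 in IMP1-OE, against 38.4 and 50.6 in null. CDC45 was at 36.6 and 38.4 in IMP1-OE, against 24.8 and 27.7 in null. An exact two-sided permutation test of 2 libraries against 2 gave p = 0.333 for each of these ratios, which is the smallest p the design allows. A ratio within a library does not depend on the scaling of that library. These ratios were formed after the levels of CDC45 and GINS had been seen, and no test that could pass was available for them.

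MCM8 and MCM9, paralogs that form a helicase of homologous recombination and are not part of the replicative ring, both had the IMP1-OE libraries above the null libraries. This order was found for 21.3% of all tested genes. MCM9 was at 15.3 and 17.2 CPM in IMP1-OE, against 9.59 and 6.57 CPM in null, a 2.01-fold difference that rested on 161 and 181 counts against 98 and 60 counts. On the log2 scale this was 1.01 (SE 0.34, unadjusted edgeR p of 0.0247). MCM8 was at 28.1 and 39.5 CPM in IMP1-OE, against 27.9 and 23.1 CPM in null, so that IMP1-OE replicate 1 and null replicate 1 were almost equal.

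The polymerase genes had fitted values on both sides of 0. Above it were 4 of 4 in alpha-primase, 2 of 4 in delta and 3 of 4 in epsilon, against 48.1% of all tested genes. In polymerase alpha-primase all 4 genes were above 0, yet 3 of them by 0.12 or less on the log2 scale. PRIM2, the large primase subunit, was at 35.9 and 40.6 CPM in the IMP1-OE libraries, against 29.8 and 27.0 CPM in the null libraries, with a log2 fold change of 0.43 (SE 0.20) and an unadjusted edgeR p of 0.0784. POLA1, the catalytic subunit, was at 38.0 and 36.2 CPM in IMP1-OE and 31.2 and 36.9 CPM in null. POLA2 (0.05) and PRIM1 (0.04) had overlapping groups too.

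Polymerase delta had 2 genes above and 2 below 0, with a median log2 fold change of 0.01. POLD1, the catalytic subunit, was at 122 and 131 CPM in the IMP1-OE libraries, against 140 and 166 CPM in the null libraries, with both IMP1-OE values below both null values. The difference on the log2 scale was -0.28 (SE 0.18, unadjusted edgeR p of 0.170), or -0.15 when null replicate 2 was left out. POLD2, which bridges the catalytic subunit to the rest, was at 109 and 122 CPM in IMP1-OE, against 115 and 69.2 CPM in null. Null replicate 2 alone was low, and the log2 fold change was 0.32, or 0.00 when that library was left out. POLD3 (0.27) and POLD4 (-0.26) overlapped between groups, and POLD4 was the least abundant per kilobase at 5.94 CPM.

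In polymerase epsilon, POLE4, a small histone-fold subunit, was at 38.9 and 46.5 CPM in the IMP1-OE libraries, against 33.5 and 25.9 CPM in the null libraries, a 1.43-fold difference with an unadjusted edgeR p of 0.0632. POLE, the catalytic subunit, was at 129 and 129.9 CPM in IMP1-OE, against 124 and 93.5 CPM in null, and its log2 fold change of 0.25 was 0.07 without null replicate 2. POLE3, the histone-fold partner of POLE4, was at 39.2 and 40.3 CPM in IMP1-OE and 52.3 and 37.9 CPM in null. The log2 fold changes were 0.52 for POLE4 and -0.18 for POLE3, and with null replicate 1 left out both were above 0, at 0.72 for POLE4 and 0.07 for POLE3. POLE2, of low abundance, had a log2 fold change of 0.17 with overlapping groups.

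The clamp loader held the members with the smallest p-values. RFC5, a small ATPase subunit of the loader, was at 83.4 and 73.5 CPM in the IMP1-OE libraries, against 47.9 and 33.4 CPM in the null libraries, a 1.93-fold difference. On the log2 scale this was 0.95 (SE 0.24, unadjusted edgeR p of 0.00732). It was the sole member called in any of the alternatives, with an edgeR adjusted p of 0.0235 and a log2 fold change of 1.23 when null replicate 1 was left out. Under that setting 6.46% of all tested genes were called, against 2.08% of the members, so the members' share of calls was not above the background. RFC3, another small subunit, was at 94.0 and 114 CPM in IMP1-OE, against 62.3 and 66.8 CPM in null, a 1.61-fold difference with a log2 fold change of 0.69 (SE 0.19) and an unadjusted edgeR p of 0.0108. RFC4 was at 50.5 and 43.4 CPM against 37.7 and 28.8 CPM, and RFC2 at 69.7 and 62.5 CPM against 51.3 and 61.9 CPM. All 4 small subunits therefore had both IMP1-OE libraries above both null libraries, RFC2 by a narrow margin. Such an order was found for 21.3% of all tested genes.

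RFC1, the large subunit of the loader, did not share this separation of the groups. It was at 42.5 and 57.1 CPM in the IMP1-OE libraries and at 51.4 and 45.4 CPM in the null libraries, with a log2 fold change of 0.04 (SE 0.22). The mean of RFC2-5 per kilobase was 4.58 and 3.29 times that of RFC1 in IMP1-OE, against 2.57 and 2.77 times in null. RFC2-5 also serve in loaders built on other large subunits. Of these, CHTF18 had a log2 fold change of 0.06, ATAD5 of 0.12 and RAD17 of -0.03, each with overlapping groups, while DSCC1, a partner of CHTF18, was at 77.3 and 80.6 CPM in IMP1-OE, against 53.7 and 52.0 CPM in null. PCNA, the clamp itself, was at 300.1 and 314.2 CPM in IMP1-OE and 277 and 314.3 CPM in null, with a log2 fold change of 0.05 (SE 0.17).

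**Figure D4:**
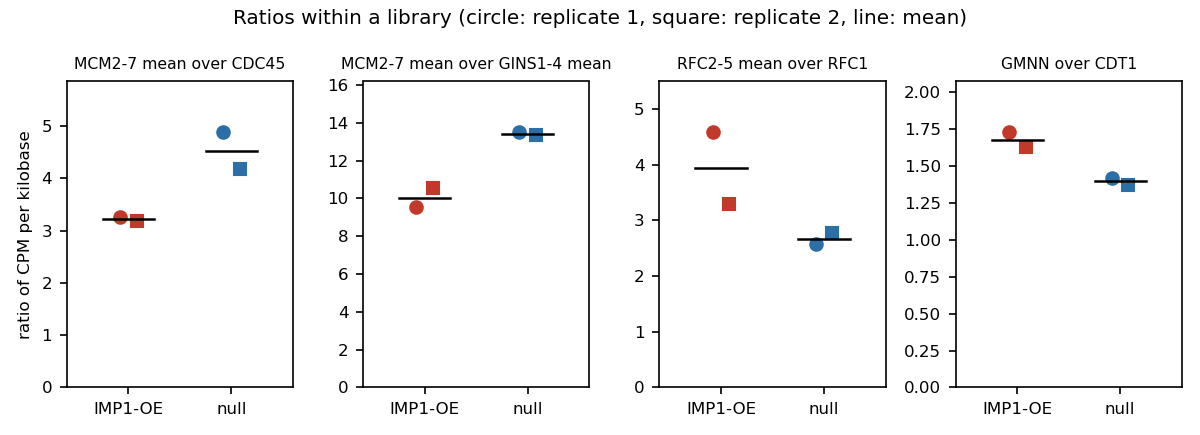
Ratios of levels per kilobase within each library, with axes from 0 and a line at the mean of each group. In both IMP1-OE libraries the mean of MCM2-7 stands in smaller excess over CDC45 and over GINS1-4 than in the null libraries. RFC2-5 over RFC1 and GMNN over CDT1 are higher there. Each ratio had an exact two-sided permutation p of 0.333, the smallest possible.

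RPA, the trimer that coats single-stranded DNA, had subunits on opposite sides of the null level. RPA1, the large DNA-binding subunit, was at 210.0 and 216 CPM in the IMP1-OE libraries, against 185 and 162 CPM in the null libraries. RPA2 was at 31.6 and 29.5 CPM in IMP1-OE, against 36.0 and 43.3 CPM in null, and RPA3 at 59.5 and 55.4 CPM against 71.2 and 62.7 CPM. None of the 3 had overlapping groups, with RPA1 above and RPA2 and RPA3 below null. Above and below null in this way lay 21.3% and 21.9% of all tested genes. The log2 fold changes were 0.29 for RPA1, -0.38 for RPA2 and -0.22 for RPA3, with unadjusted edgeR p-values from 0.117 to 0.271. RPA2 was at -0.24 with null replicate 2 left out and RPA3 at -0.13 with null replicate 1 left out. The ratio of RPA1 to RPA2 per kilobase was 2.15 and 2.37 in IMP1-OE, against 1.66 and 1.21 in null, and the exact two-sided permutation p was 0.333, the smallest possible.

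The enzymes of Okazaki fragment maturation had overlapping groups. FEN1, the flap nuclease, was at 207 and 238 CPM in the IMP1-OE libraries and 216 and 175 CPM in the null libraries. LIG1, the replicative ligase, was at 121 and 115 CPM in IMP1-OE and 112 and 143 CPM in null. Their log2 fold changes were 0.19 and -0.12.

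Part of the spread among members lay between the null libraries. Null replicate 1 exceeded null replicate 2 for 30 of the 48 genes, with a median log2 difference of 0.19, where the median over the tested genes with counts in every library was 0.00. Between the IMP1-OE libraries the median difference of the members was -0.04. The median log2 fold change of the 48 genes was 0.27 with null replicate 1 left out (38 genes above 0) and 0.12 with null replicate 2 left out (35 genes above 0). The part of the spread between the null libraries in these levels was not tested. The 7 genes with an unadjusted edgeR p under 0.05 were picked in these same libraries, and none had overlapping groups. Their log2 fold changes with any 1 of the 4 libraries left out could therefore hardly fall below 0 and are no check. The lowest such value was 0.76 for MCM9, 0.71 for RFC5, 0.56 for RFC3 and 0.51 for GINS2. It was 0.47 for ORC1, 0.44 for CDC45 and 0.43 for MCM10.

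**Figure D5:**
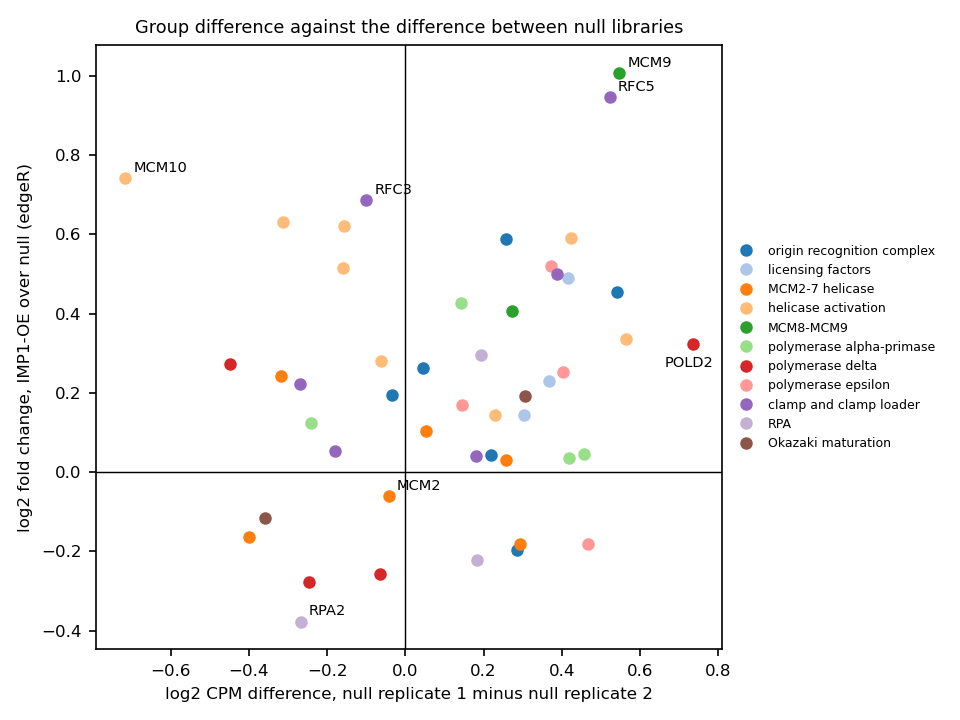
Log2 fold change of each gene, IMP1-OE over null, against the log2 difference between null replicate 1 and null replicate 2, with genes coloured by role. RFC3 lies near the middle of the horizontal axis with a fold change of 0.69, while MCM10 and POLD2 lie far to its left and right.

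Other genes of the pathway were counted from a list of 67, all of which passed the low-count filter. Of these, 53 had a log2 fold change above 0 and the median was 0.21, close to the 0.23 of the 48 members. Both IMP1-OE libraries lay above both null libraries for 32 (47.8%), against 21.3% of all tested genes, and below for 7 (10.4%), against 21.9%. Of the 67, 0 were called by the edgeR adjusted p or in the authors' deposited table. An unadjusted edgeR p under 0.05 was reached by 8 (11.9%), all higher in IMP1-OE, against 4.34% of all tested genes. TICRR, which with TOPBP1 brings CDC45 to origins, was at 44.2 ± 1.71 CPM in IMP1-OE cells, against 27.5 ± 0.0655 CPM in null cells (SD, n = 2 each). The fork protection genes CLSPN and TIMELESS were at 48.2 ± 1.51 CPM and 92.7 ± 17.1 CPM in IMP1-OE, against 30.9 ± 2.73 CPM and 52.7 ± 13.1 CPM in null (SD, n = 2 each). DNA2, a nuclease of long flaps, was 1.55-fold higher, the topoisomerase gene TOP2A 1.34-fold and the histone chaperone gene ASF1A 2.02-fold.

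Of the E2F and RB families, 10 of 13 genes were above 0, with a median log2 fold change of 0.12, and 4 (30.8%) had both IMP1-OE libraries above both null libraries, against 21.3% of all tested genes. E2F3 had the largest log2 fold change of the 13, 0.75, at 17.6 and 16.5 CPM in IMP1-OE, against 12.1 and 8.10 CPM in null, with an unadjusted edgeR p of 0.0601. E2F6 was at 0.35 and the lowest was TFDP2 at -0.44. TFDP1, the dimer partner of E2F proteins, was the gene among them with an unadjusted edgeR p under 0.05 (0.0186), at 99.3 and 117 CPM in the IMP1-OE libraries, against 58.7 and 76.4 CPM in the null libraries. E2F1 was at 24.7 and 25.0 CPM in IMP1-OE, against 19.7 and 21.6 CPM in null, with an unadjusted edgeR p of 0.264. Genes of replication-coupled chromatin were above 0 for 9 of 9, with a median of 0.23, and translesion polymerases for 3 of 6. The share above 0 was 48.1% among all tested genes. Genes of licensing control by ubiquitin ligases gave 5 of 6 above 0. Among them DTL, the receptor that targets CDT1, had overlapping groups at 44.7 and 45.6 CPM in IMP1-OE and 47.0 and 43.6 CPM in null.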

How the data were processed

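The authors deposited estimated counts in kallisto's column layout, per the file headers, for 20322 targets (1 transcript per gene), and all values were whole numbers. The submitters' processing notes name kallisto 0.46.2, HISAT2 2.1.0, fastp 0.21, cutadapt 3.5 and DESeq with no order or purpose. The authors' genome build was not given in the sources used here. Per the labels' protocols, RNA fragments of 18 to 50 nt were kept and ligated to linkers with molecular identifiers. Their use against PCR duplicates is unstated. Fragments this short can be shared by paralogs and pseudogenes. The 2 other sample names in the table match no label and were not used.

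The authors' deposited table holds log2 fold changes, errors and p-values, and DESeq is the tool for such values that the notes name.

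Counts were tested with edgeR 4.0.16 (R 4.3.3), TMM scaling, the default low-count filter and the quasi-likelihood F test, IMP1-OE against null without covariate, with Benjamini-Hochberg adjustment over 12113 genes and a threshold of 0.05. CPM is TMM-scaled, and CPM per kilobase divides it by the effective target length in the file. An SE is the log2 fold change divided by the root of the F statistic. Chi-square per degree of freedom between replicates was 19.2 for IMP1-OE and 55.3 for null, so no libraries were merged. Alternatives were other scalings and filters, DESeq2 1.42.0, limma 3.58.1 (voom), the replicate block, ARSI left out and each library left out. The steps were tested on simulated data. Depth limits precision through counting error, and a count of 0 allows up to 3 counts.

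Members, role groups and lists were chosen with earlier results of these data known. Full values were given by a rule that takes, in each role group, the 2 members with the smallest p, any with an unadjusted p under 0.05 and those with the highest and lowest level per kilobase, and of other pathway genes the 8 with the smallest p under 0.05. Further genes, such as DTL, E2F1, E2F3, E2F6, TFDP2 and the large subunits of other loaders, were named after their values were seen.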

Additional observations from a re-analysis of the deposited data

How the results depend on the processing

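Of 57 genes followed through 13 alternatives, 45 kept their direction in every one. The 57 were the 48 members, IGF2BP1 and 8 other pathway genes picked by an unadjusted edgeR p under 0.05 in these data. Where the groups do not overlap, leaving out 1 library can hardly turn the direction, so the count is no test of such genes. The other 12 had overlapping groups, with log2 fold changes from -0.18 (POLE3) to 0.17 (POLE2) in the main fit. MCM2 was at 0.018 with library totals. With 1 library left out in turn, the log2 fold change ran from -0.079 to 0.35 for CDC7, -0.28 to 0.074 for LIG1, -0.35 to 0.050 for MCM5, -0.093 to 0.16 for MCM7, -0.14 to 0.22 for ORC2, -0.033 to 0.15 for PCNA, -0.16 to 0.29 for POLA2, -0.044 to 0.37 for POLE2, -0.40 to 0.070 for POLE3, -0.16 to 0.26 for PRIM1 and -0.17 to 0.24 for RFC1. The count of all genes called, 0 with edgeR, was 22 without the low-count filter, 1 with at least 10 counts in every library, 164 with DESeq2, 1 with limma-voom, 15 with the replicate block and 0 to 783 with a library left out. Members called ranged from 0 to 1 with a library left out. Members higher at an unadjusted p under 0.05, 7 with all libraries, were 12 with library totals and 1 to 15 with a library left out. The median log2 fold change of the members, 0.23, was 0.31 with library totals, which moved the median of all genes from -0.02 to 0.06, and 0.12 to 0.27 with a library left out. Members with both IMP1-OE libraries above null, 24 with all libraries, were 28 to 34 with a library left out (58.3% to 70.8%), where the share of all genes was 32.8% to 39.5% in place of 21.3%, since fewer libraries make overlap less likely, and the lone library is taken to vary like the other group. The cause of the other shifts was not tested. Without null replicate 1, TIMELESS and ASF1A passed the adjusted threshold beside RFC5. With the replicate block, the same 7 members had an unadjusted p under 0.05. The labels do not pair the replicate numbers, and the difference between replicates 1 and 2 correlated at 0.12 across genes between the groups. With 2 libraries a group, their number limits precision, as does counting error for MCM9, GINS4, POLE2 and POLD4.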
